A study of Neurospora crassa with 86 samples.

Results

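In mycelium of the filamentous fungus Neurospora crassa, 179 of 9598 entries of a joint expression table were highest when 344 mM arginine was the nitrogen source and stood well above every other medium. They were chosen from the mean of log2(FPKM + 1) in 14 wild type media, FPKM being fragment counts divided by transcript length and library size. In each of them the arginine mean exceeded the next highest medium by at least 1.5 log2 and reached at least 5 FPKM. Of the 179 entries 2 join a pair of neighbouring genes, and in each pair 1 gene met the rule in the values deposited per sample (NCU07041 and NCU07241) and the other did not (NCU07042 and NCU07242). The arginine levels chose the genes, so they are given below as a description, without a test.

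RNA was sequenced in 86 libraries, which make up 27 groups by strain and medium. Cultures grown for 24 h at 25 °C in sucrose medium were washed and kept for 4 h in the test medium, under constant light. Wild type was strain FGSC 2489, with 3 libraries in each medium except full medium (5) and nitrogen starvation (6). Single nitrogen sources, all with 2% sucrose, were 344 mM arginine, 200 mM glycine, 112 mM alanine, or 50 mM of glutamine, glutamate, isoleucine, proline, tryptophan, ammonium chloride or sodium nitrate. A further medium with sucrose lacked nitrogen. Both remaining test media held 25 mM ammonium nitrate, with no carbon source or with 2 mM mannose in place of sucrose. The full medium held 2% sucrose and 25 mM ammonium nitrate. Deletion strains had 3 libraries per medium: Δnit-2 in full medium, nitrate, isoleucine, proline and tryptophan; Δamn-1 in mannose, isoleucine, proline and tryptophan; Δnit-4 in nitrate and without nitrogen; Δnmr in full medium and without nitrogen. No deletion strain was grown on arginine. The labels call the replicates biological and give each deletion strain by its deletion alone. Arginine was also the most concentrated nitrogen source, so the amino acid and its concentration cannot be told apart.

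Arginine enters Neurospora through amino acid permeases and is largely stored in the vacuole. Arginase splits it into ornithine and urea, and ornithine aminotransferase passes ornithine on towards proline and glutamate. NIT-2, a GATA factor, activates genes for the use of secondary nitrogen sources, and amn-1 encodes a transcription factor.

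The libraries held an estimated 6890000 to 19100000 fragments, and those on arginine 14700000 to 16100000. In the arginine libraries the members rested on an estimated 26.9 fragments at the least, with a median of 2967, and 172 of the 177 members with an estimate had at least 100 there. The deleted gene was low in its own strain: nit-2 was at 3.3 to 6.61 FPKM in the 15 Δnit-2 libraries, against 35 to 73.7 in the 17 wild type libraries of the same media, and amn-1 at 0.274 to 5.48 in the 12 Δamn-1 libraries, against 8.62 to 37.1 in 12 wild type libraries. Mitochondrial genes took the smallest share of signal on arginine among the wild type media, 0.00342% to 0.00726%, against 0.00827% to 0.0197% in full medium and up to 0.174% on isoleucine. All wild type libraries on ammonium, nitrate, isoleucine, proline and tryptophan held at least 0.0453%. Those in the other media, glutamine and glycine among them, held at most 0.0237%. Of the amino acid media, isoleucine, proline and tryptophan had at most 10260000 estimated fragments per library, and the others at least 12930000. The part of these differences between media in the results was not tested.

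The members spanned a wide range of levels. Mean FPKM on arginine ran from 6.74 to 4171 with a median of 89.8, with 87 members at 100 or more, 10 at 1000 or more and 15 under 20. In full medium 19 members averaged under 1 FPKM. The excess over the second highest medium ran from 1.5 to 4.63 log2 with a median of 1.87, was at least 2 in 66 members and at least 4 in 6. Just inside the margin stood NCU03397 (1.5), NCU03051 (1.504) and NCU05293 (1.507), and just outside it NCU07922 (1.499), NCU05233 (1.497) and NCU01329 (1.494). In all 179 members the lowest arginine library lay above all 44 other wild type libraries, which holds for 12.5% of the 8558 genes tested and follows largely from how the genes were chosen. Among the arginine libraries the members had a median coefficient of variation of 19.3% and a maximum of 32.9%. The median log2 level over the members was lowest in the library numbered 3, at 6.22, against 6.58 and 6.74. In bulk mycelium a change in the make-up of cells and a change of RNA per cell cannot be told apart.

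NCU07152, a gene of supercontig 12.5 (6411400 to 6412219), showed the largest excess. It was at 31, 25.9 and 25 FPKM in the arginine libraries, against 0.469, 0 and 0 in nitrate, its second highest medium. In full medium it was at 0.0868 in 1 library and listed at 0 in the other 4. NCU07149, which lies close by (12.5, 6417640 to 6419476), was at 149.7, 127 and 106 FPKM on arginine, against 15.8, 11.3 and 8.22 in nitrate and 0.177 to 1.09 in full medium. Both genes were thus near absent in full medium and plainly expressed in every arginine library.

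Others of the 12 largest excesses were abundant transcripts. NCU09536 was at 1437, 1378 and 1096 FPKM on arginine, against 81.1, 75.4 and 65.3 in nitrate. NCU01340 was at 1001, 863 and 848 on arginine, against 60.7, 45.3 and 34.2 in mannose. NCU08603 was at 339, 323 and 303 on arginine, against 18, 17.4 and 13.6 in ammonium. The media were far apart in each of these genes, with no overlap. The remaining large excesses were those of NCU09382 (83.8 ± 19.7 FPKM on arginine), NCU05230 (433 ± 61.3), NCU00802 (276 ± 20.5), NCU07752 (25.4 ± 5.77), NCU09613 (35.2 ± 4.07) and NCU06875 (654 ± 17.4), each as mean and SD of 3 libraries.

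**Figure D1:**
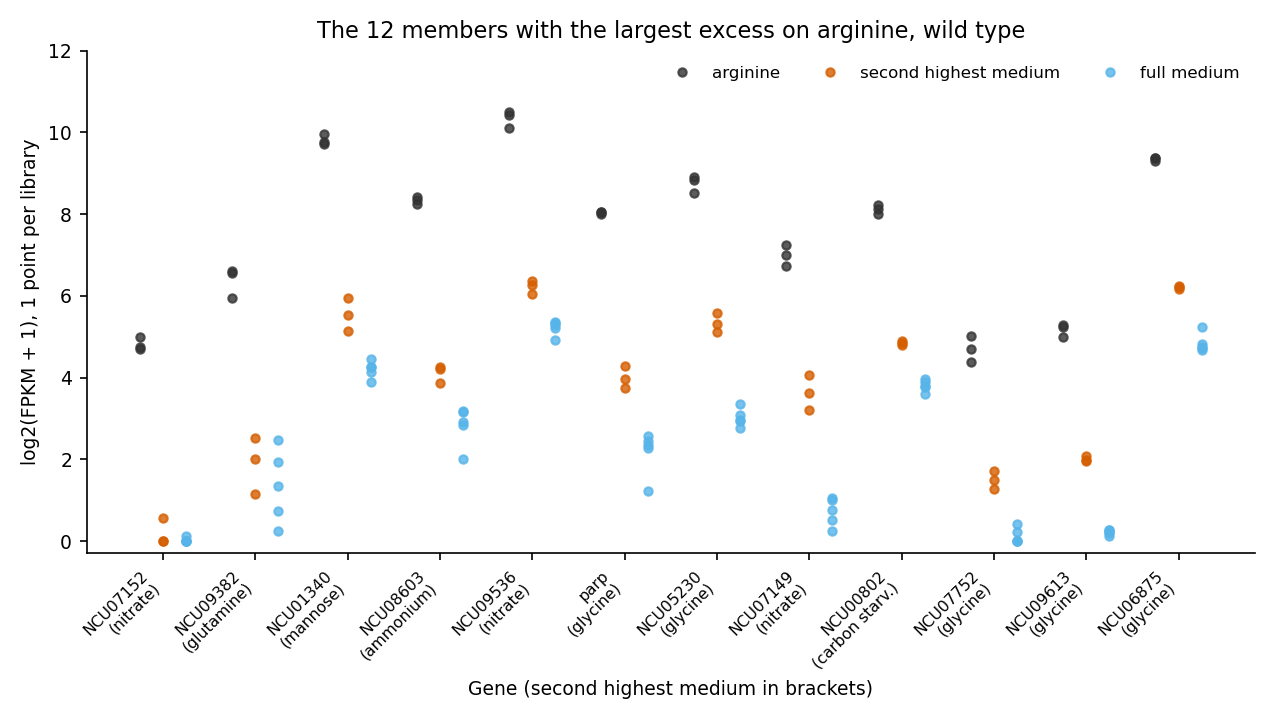
Level of the 12 members with the largest excess on arginine, as log2(FPKM + 1) with 1 point per wild type library, in arginine (n = 3), in each gene's second highest medium (n = 3, named in brackets) and in full medium (n = 5). The arginine points of each gene lie above all its other points, and NCU07152 lies at or near 0 in full medium.

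Of the 179 members 17 carry a gene symbol. ota, ornithine aminotransferase (NCU00194; 12.3, 2949400 to 2952208), was at 1191, 1179.5 and 1000.1 FPKM on arginine, against 209, 203 and 186 on glycine and 92.2 to 102 in full medium. All 3 arginine libraries were several times above every other one. Of the 9 symbols in a list of arginine and urea breakdown 2 had an entry, of which ota is the member, and members without a symbol were not assigned a role.

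Of the 17, 5 are known from DNA repair, a grouping made after their values were seen. The reference gene table holds 43 such symbols among 1118. parp (NCU08852; 12.5, 132681 to 135523), a poly(ADP-ribose) polymerase, was at 265, 265 and 257 FPKM on arginine, against 18.6, 14.7 and 12.5 on glycine and 1.33 to 4.98 in full medium. mus-53 (NCU06264; 12.3, 2116850 to 2120498), DNA ligase IV of end joining, was at 44.4, 43.8 and 43.5 FPKM on arginine, against 6.64, 6.01 and 5.62 on glycine. mus-21 (NCU00274), an ATM-type checkpoint kinase, was at 34.3, 34.1 and 33.5 FPKM on arginine, against 7.76, 7.01 and 6.56 on isoleucine. These genes varied little among the arginine libraries and were low in all the other media. rad16 (NCU03650), named after a yeast gene of nucleotide excision repair, averaged 71.7 ± 10.8 FPKM on arginine and 8.5 ± 0.397 on glycine. mus-11 (NCU04275), a Rad52-type recombination gene, averaged 39.2 ± 2.44 on arginine and 10.8 ± 0.341 on glycine (SD, n = 3 each).

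The next 3 named members are placed together by hand and not from a list. un-18 (NCU08616), a subunit of RNA polymerase I, was at 94.6, 81.9 and 59.6 FPKM on arginine, against 26.6, 21.6 and 20.9 in ammonium. cyt-19 (NCU07670), a DEAD-box chaperone of mitochondrial introns, was at 234, 212 and 154 on arginine, against 76.2, 69.3 and 54.2 on glutamine. cyt-5 (NCU06308), the mitochondrial RNA polymerase, averaged 54.3 ± 12 on arginine and 17.7 ± 2.38 on glutamine. In each of these genes 1 arginine library was lower than the other 2, and all arginine libraries were above the second medium.

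The other named members had varied roles. scon-3 (NCU08991), the SKP1-type subunit of sulfur control, was the most abundant of the 17 at 1731 ± 30.8 FPKM on arginine and 584 ± 23 in mannose. lacc (NCU04528), a laccase, was at 121, 106 and 96.2 on arginine, against 43.1, 36.6 and 28.2 on glycine and 1.35 to 2.08 in full medium. gh61-5 (NCU08760), of a glycoside hydrolase family of lignocellulose breakdown, averaged 29.6 ± 6.18 on arginine and 7.75 ± 1.85 in mannose. crf5-1 (NCU06306), a chromatin remodelling factor, averaged 51 ± 9.87 on arginine and 15.9 ± 1.11 on glycine. fkr-4 (NCU03241), of the FKBP type, averaged 482 ± 102 on arginine and 135 ± 32.5 in full medium. pod-5 averaged 87.4 ± 17.9 on arginine and 20.3 ± 3.34 on glutamine, cys-16 177 ± 10.4 and 56.9 ± 2.18 on glycine, and rbg-40 69.3 ± 14.2 and 23.9 ± 6.03 in full medium. The most abundant members had no symbol: NCU06048 averaged 4171 ± 333 FPKM on arginine and 1101 ± 64 on glycine, NCU01441 3375 ± 314 and 429.5 ± 34.1 on glycine, NCU02602 1893 ± 82.1 and 451 ± 37 on glutamine, and NCU04603 1840.3 ± 302 and 333 ± 35.6 on tryptophan.

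Below arginine the members did not follow one order of media. The second highest medium was glutamine for 66 of them, glycine for 43, full medium for 19 and ammonium for 15. Over all members the median log2 level of a library was 6.51 ± 0.27 on arginine (SD over 3 libraries). The next media were glutamine (4.30), full medium (4.18), ammonium (4.02) and nitrate (3.88), whose libraries overlapped, and mannose was lowest at 1.59. The arginine libraries were at 6.58, 6.74 and 6.22. The median of all genes lay between 3.71 and 3.86 in every wild type medium.

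The 66 members second on glutamine and the 43 second on glycine had different profiles. This split was made on the wild type levels and is a description. The glutamine group had a median of 6.70 on arginine, 4.97 on glutamine, 4.78 in full medium, 2.50 without nitrogen, 2.46 without carbon and 1.15 in mannose. The glycine group had a median of 6.84 on arginine, 4.71 on glycine and between 2.67 and 3.28 in the 12 remaining media. With sucrose and an amino acid, the glutamine group was at 2.58 on proline, 3.35 on glycine, 3.39 on isoleucine and 3.42 on tryptophan. By these medians it was moderately high on glutamine and in full medium. It was low under starvation and in mannose, and as low on proline, so a low level was not particular to starvation. The median of the glycine group was low and flat outside arginine and glycine, but single members varied. For example, lacc averaged 0.966 FPKM in mannose and 8.72 on tryptophan. ota, parp, rad16, mus-53, mus-11 and lacc are in the glycine group, and cyt-19, cyt-5 and pod-5 in the glutamine group. The arginine library numbered 3 was low in the glutamine group, at 6.29 against 6.84 and 6.97. In the glycine group it was at 6.81, against 6.90 and 6.82.

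**Figure D2:**
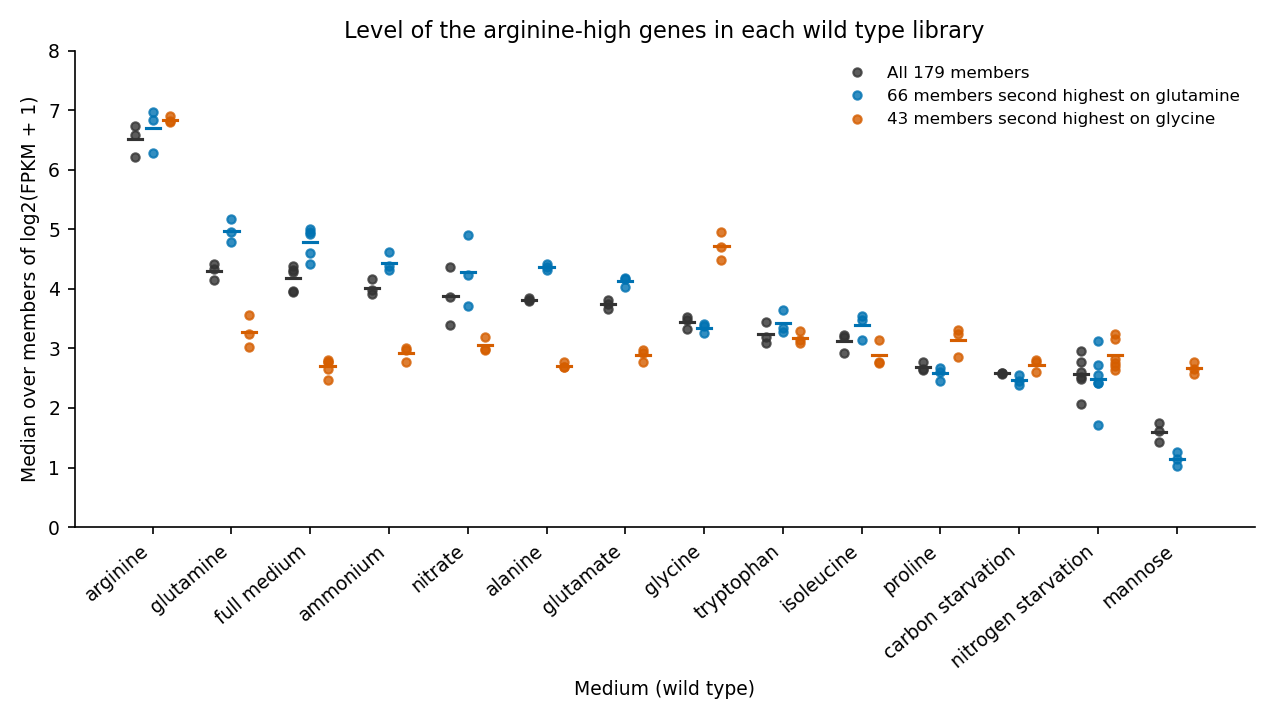
Median log2(FPKM + 1) over the members in each wild type library (points) with the mean of the libraries (bars), by medium, for all 179 members and for the 66 and 43 members whose second highest medium was glutamine and glycine. Arginine lies highest for every group, the glutamine group falls to 1.15 in mannose, and the glycine group stays between 2.67 and 3.28 outside arginine and glycine.

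Starvation separated the members from other genes. Comparisons were made with limma on log2(FPKM + 1), with calls requiring both 1 log2 or more between the groups and an adjusted p below 0.05. The levels outside arginine entered the choice of members only as an upper bound, and the media comparisons below all use the same full medium libraries. Without nitrogen 86 of 179 members fell against full medium, where 8.78% of all genes did, and 1 rose, where 8.06% did (16.8% of all genes were called in either direction). The median difference was -0.76 log2 over the members and 0.07 over all genes. NCU03092 showed the largest difference, at 8.86 ± 4.98 FPKM without nitrogen (n = 6) and 212 ± 35.1 in full medium (n = 5; log2 difference -4.57, SE 0.31, adjusted p = 5.5e-20). NCU07547 (-3.39), NCU11321 (-3.23) and NCU02611 (-3.22) followed. Of the named members un-18 fell to 2.68 ± 0.973 FPKM without nitrogen, against 18.5 ± 1.64 in full medium, and cyt-19 to 8.62 ± 2.86, against 54.1 ± 8.55. All of the 6 starved libraries lay below all 5 full medium libraries in both genes. The member that rose was NCU03121, named here after its value was seen, at 3.59 ± 2.8 FPKM without nitrogen and 0.442 ± 0.134 in full medium.

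Without a carbon source 96 members fell, where 16.3% of all genes did, and 2 rose, where 19.8% did (36% in either direction). NCU03092 was at 10.5 ± 0.29 FPKM without carbon and 212 ± 35.1 in full medium (log2 difference -4.19, SE 0.37, adjusted p = 5.9e-16). NCU05650 fell to 3.92 ± 0.479, against 75.9 ± 5.68 in full medium, and rbg-40 to 1.14 ± 0.392, against 23.9 ± 6.03. The members that rose, NCU00802 (27.8 ± 0.966 FPKM without carbon and 13 ± 1.27 in full medium) and NCU03121 (2.52 ± 0.2 and 0.442 ± 0.134), are not in the glutamine group, of which 53 of 66 fell and 0 rose.

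Mannose in place of sucrose lowered 102 members, where 17.6% of all genes fell, and raised 6, where 21.8% rose (39.4% in either direction). fkr-4 was at 2.26, 2.16 and 1.5 FPKM in mannose, against 166, 158, 152, 104 and 95.8 in full medium (log2 difference -5.49, SE 0.32, adjusted p = 3.4e-24). NCU03092 was at 2.22 ± 0.19 in mannose and 212 ± 35.1 in full medium, NCU07547 at 0.362 ± 0.0639 and 68.8 ± 7.39, and NCU05650 at 0.64 ± 0.164 and 75.9 ± 5.68. No library of either medium overlapped in fkr-4, and its full medium libraries themselves formed a higher 3 and a lower 2. Among the 6 that rose were NCU06876 (245 ± 52.3 FPKM in mannose and 79.8 ± 3.43 in full medium) and NCU01340 (46.7 ± 13.3 and 17.5 ± 2.53), a pair of abundant transcripts, and gh61-5 (7.75 ± 1.85 and 3.06 ± 0.216). The glutamine group gave 60 of its 66 members as lower and 0 as higher, and the glycine group 8 of 43 as lower and 1 as higher. The split into these groups ranked the same wild type media, so their counts here and without carbon follow in part from it.

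On glycine 38 members (21.2%) rose against full medium, a share close to the 19.5% of all genes that did. Another 63 members (35.2%) fell, where 14% of all genes did (33.5% in either direction). lacc was at 43.1, 36.6 and 28.2 FPKM on glycine, against 2.08, 1.64, 1.63, 1.46 and 1.35 in full medium (log2 difference 3.80, SE 0.19, adjusted p = 2.3e-27). NCU09604 was at 61.2 ± 3.94 on glycine and 4.5 ± 1.46 in full medium, and NCU09914 at 43.4 ± 2.44 and 3.8 ± 0.739. parp (15.3 ± 3.05 on glycine and 3.74 ± 1.41 in full medium), rad16 (8.5 ± 0.397 and 3.26 ± 0.176) and ota (199.6 ± 12 and 98.5 ± 4.08) also rose. In the opposite direction NCU02675 was listed at or near 0 in all 3 glycine libraries, with 8.37 ± 1.27 FPKM in full medium, and cyt-19 fell to 8.91 ± 0.631, against 54.1 ± 8.55. Because the second highest medium defines the glycine group, its 34 of 43 higher members follow in part from that definition. Of the glutamine group 43 of 66 fell and 0 rose, which follows in part from the same split.

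Loss of nit-2 gave few calls among the members in full medium and more on other nitrogen sources. In full medium 0 members rose in Δnit-2, where 1.31% of all genes did, and 1 fell, where 1.32% did (2.63% in either direction). That was NCU09382, at 0.104 ± 0.0915 FPKM in Δnit-2 and 1.96 ± 1.77 in wild type, with wild type libraries between 0.185 and 4.57. The call was lost without the wild type library numbered 5 in the joint table (-0.93 log2).

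On nitrate 67 members fell in Δnit-2, where 5.38% of all genes did, and 7 rose, where 3.63% did (9.01% in either direction). NCU03092 was at 14.8, 12.5 and 11.2 FPKM in Δnit-2, against 211, 107 and 56 in wild type (log2 difference -2.99, SE 0.41, adjusted p = 3.8e-08). The groups did not overlap, and the wild type libraries differed several-fold among themselves. NCU05650 fell to 15.6 ± 1.86 in Δnit-2, against 80.4 ± 45.4 in wild type, un-18 to 4.1 ± 0.313, against 21.3 ± 10.7, and cyt-19 to 14.2 ± 1.48, against 53.6 ± 19.5. Of the glutamine group 44 of 66 fell and 0 rose, and of the glycine group 1 of 43 fell and 6 rose. The members' median log2 level was 2.95, 2.86 and 2.99 in the Δnit-2 nitrate libraries and 3.39, 4.37 and 3.87 in wild type. Without the wild type library numbered 2, the highest of these, 41 members fell and 6 rose. A lower level on nitrate was not particular to Δnit-2. The members' median was 3.08, 3.36 and 3.31 in the Δnit-4 nitrate libraries, and their difference from wild type was not tested. Mitochondrial genes took 0.0491% to 0.0635% of the signal in Δnit-2 and 0.0453% to 0.141% in wild type, and the part of this difference in the result was not tested.

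On proline the direction was the opposite. Here 51 members rose in Δnit-2, where 4.66% of all genes did, and 1 fell, where 4.37% did (9.03% in either direction). NCU08518 was at 13.3, 10.9 and 5.95 FPKM in Δnit-2, against 1.64, 1.62 and 1.08 in wild type (log2 difference 2.12, SE 0.33, adjusted p = 4.8e-07). NCU03092 was at 32.8, 30.3 and 14.4 in Δnit-2, against 6.36, 5.49 and 5.31 in wild type. Neither gene had overlapping groups. fkr-4 (33.8 ± 8.79 FPKM in Δnit-2 and 14 ± 2.06 in wild type), un-18 (8.69 ± 2.29 and 3.74 ± 0.38) and pod-5 (7.13 ± 1.52 and 2.42 ± 0.177) rose as well. Of the glutamine group 26 of 66 rose and 0 fell.

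The difference between these responses was tested directly, in a comparison added after the separate results were seen. The Δnit-2 effect on proline minus that on nitrate was above 0 and called for 92 members, where 7.36% of all genes were, and below 0 for 1, where 4.59% were (12% in either direction). It was 4.91 log2 for NCU03092 (SE 0.59, adjusted p = 4.7e-09), 3.77 for NCU08518, 3.67 for NCU05650 and 3.64 for NCU02675. In wild type NCU08518 was at 1.64, 1.62 and 1.08 FPKM on proline, against 39.1, 22.5 and 11.6 on nitrate. In Δnit-2 it was at 13.3, 10.9 and 5.95 on proline, against 6.83, 6.66 and 5.38 on nitrate. The media thus differed widely in wild type and little in Δnit-2. Among named members the difference of effects was 3.02 for un-18, 3.07 for fkr-4, 3.07 for pod-5 and 2.35 for cyt-19.

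**Figure D3:**
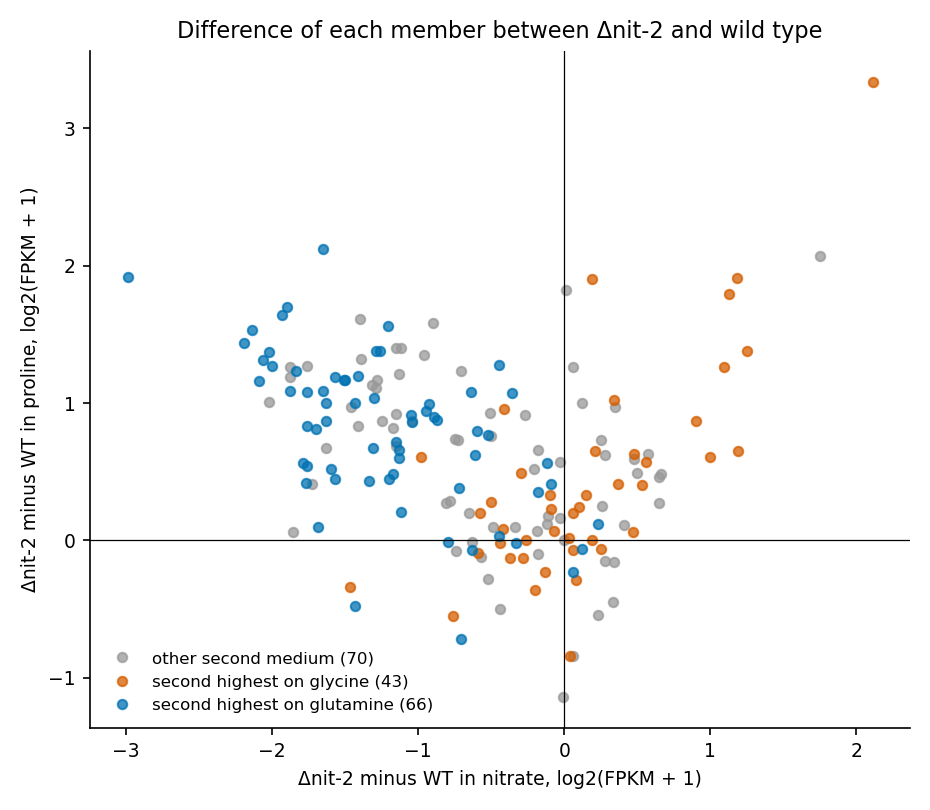
Each point is 1 of the 179 members, placed by its difference Δnit-2 minus wild type on nitrate (horizontal) and on proline (vertical), both in log2(FPKM + 1), and coloured by its second highest medium. Most of the 66 members second on glutamine lie to the left of 0 and above 0, and NCU07037 is the farthest point at upper right (2.11 on nitrate and 3.34 on proline).

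On isoleucine 22 members rose in Δnit-2, where 2.79% of all genes did, and 7 fell, where 2.41% did (5.2% in either direction). On tryptophan 24 rose, where 3.93% did, and 3 fell, where 2.87% did (6.8% in either direction). Over all members, called or not, most differences were below 0. On isoleucine 118 were below and 59 above 0, with a median of -0.25 log2 (-0.01 over all genes). On tryptophan 117 were below and 61 above 0, with a median of -0.16 (0.01 over all genes). On isoleucine the count of members that fell depended on single libraries: 38 fell without the Δnit-2 library numbered 1 and 23 without the wild type library numbered 1, more than the 22 and 21 that then rose. With a pseudocount of 0.1 the count that fell was 18. Of the members that rose, 14 of 22 on isoleucine and 16 of 24 on tryptophan were in the glycine group, and 1 in each medium was in the glutamine group.

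A small set of members rose in Δnit-2 on all 3 of these amino acids. They were 9 of 179, where 0.783% of all genes did so, and 6 of them rose on nitrate too, where 0.479% did. The comparisons share no library. NCU07037 (12.4, 4989460 to 4992315) was at 126, 69.8 and 61 FPKM in Δnit-2 on proline, against 8.68, 8.31 and 4.95 in wild type (log2 difference 3.34, SE 0.20, adjusted p = 1.7e-21). It was at 78.2, 59 and 37.8 in Δnit-2 on isoleucine, against 7.12, 5.53 and 4.55 in wild type. Every Δnit-2 library was above every wild type library in both media, and in full medium the ranges overlapped, with Δnit-2 at 3.34 to 5.03 and wild type at 3.68 to 5.13.

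lacc was at 81.9, 52.7 and 41 FPKM in Δnit-2 on tryptophan, against 9.82, 8.8 and 7.54 in wild type (log2 difference 2.56, SE 0.21, adjusted p = 1.0e-15). On isoleucine it was at 31, 26.9 and 24.6 in Δnit-2, against 3.34, 2.55 and 2.25 in wild type. NCU11050 was at 144, 98.2 and 95.3 in Δnit-2 on tryptophan, against 14.3, 13.3 and 10.3 in wild type. Both genes thus stood apart between the strains without overlap. NCU08641 was at 176, 148 and 102 in Δnit-2 on isoleucine, against 24.4, 22.7 and 21.9 in wild type, and at 129, 90.6 and 87.8 in Δnit-2 on tryptophan, against 23.7, 20.2 and 15.2. NCU00984, NCU04656, NCU05230, NCU06875 and NCU09914 complete the set and are named after their values were seen. NCU07149 rose on tryptophan, to 13.6, 10 and 7.71 in Δnit-2, against 1.27, 1.14 and 0.934 in wild type.

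Some members reached their arginine level in a deletion strain. In 174 of 179 members the lowest arginine library exceeded all 39 deletion libraries, where 14.3% of all genes did so. The members were chosen for their high arginine levels, so this count follows largely from the choice. The 5 exceptions all had their highest deletion library in Δnit-2. They were NCU08641 (248 FPKM in Δnit-2 on proline, against 218, 205 and 188 in wild type on arginine), NCU07037 (126 on proline, against 122, 119 and 111), NCU09629 (145 on tryptophan, against 112, 111 and 95.3), NCU11050 (144 on tryptophan, against 159, 136 and 111) and NCU09241 (222 on tryptophan, against 253, 219.7 and 189). In 3 of the 5 the highest Δnit-2 library exceeded every arginine library.

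**Figure D4:**
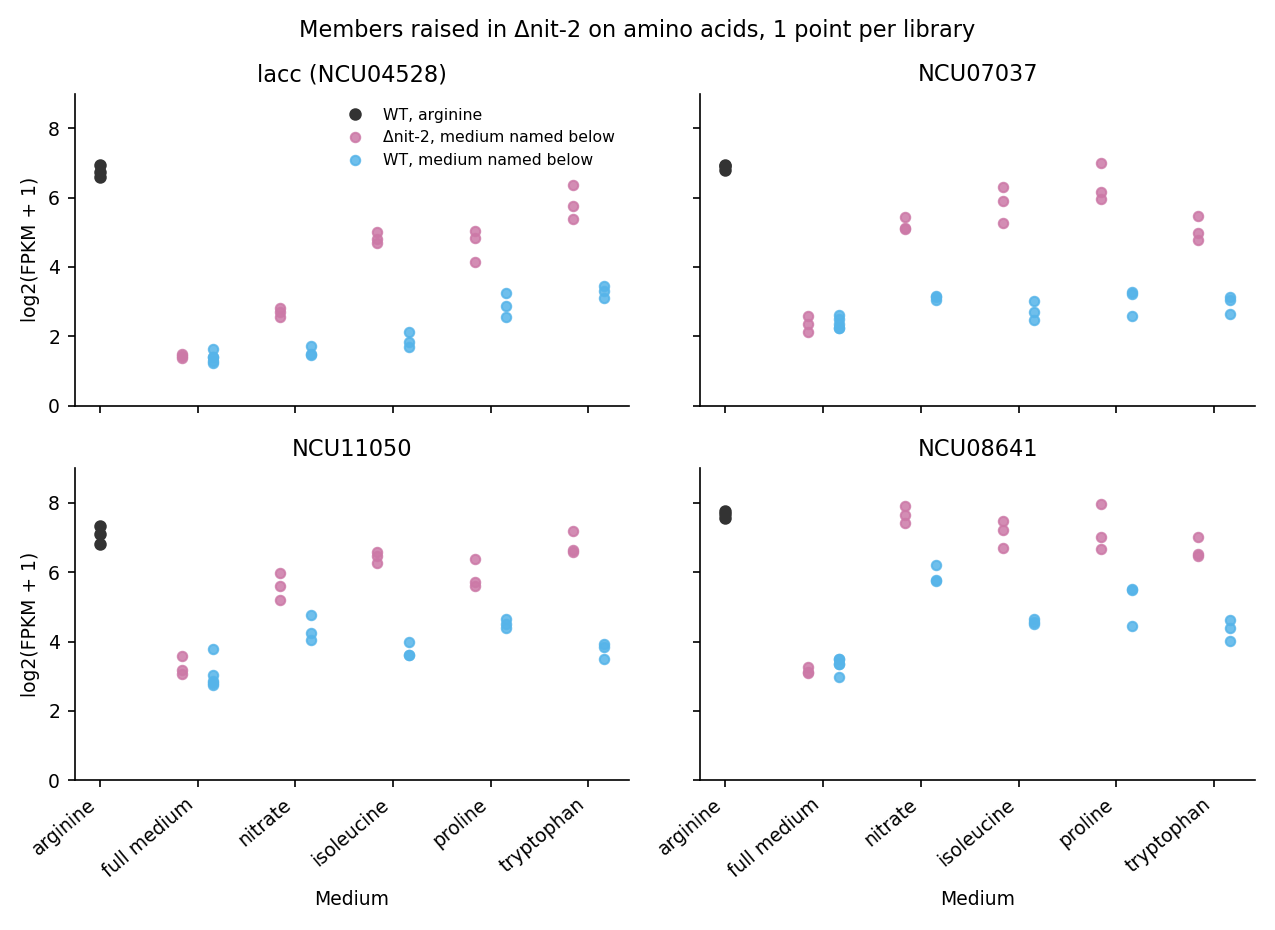
log2(FPKM + 1) of lacc, NCU07037, NCU11050 and NCU08641 with 1 point per library, in wild type on arginine (n = 3) and, for the 5 media named below the axis, in Δnit-2 (n = 3) and wild type (n = 3, full medium 5). The Δnit-2 points lie above the wild type points on nitrate, isoleucine, proline and tryptophan and in the same range in full medium, and NCU08641 reaches its arginine level in Δnit-2.

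Loss of amn-1 mattered most on mannose. There 78 members rose in Δamn-1, where 7.91% of all genes did, and 5 fell, where 8.99% did (16.9% in either direction). fkr-4 was at 55.2, 33.9 and 27.1 FPKM in Δamn-1, against 2.26, 2.16 and 1.5 in wild type (log2 difference 3.69, SE 0.36, adjusted p = 1.5e-13). NCU09903 (12.1, 9177 to 13334) was at 23.5, 20.3 and 19 in Δamn-1, against 0.654, 0.534 and 0.507 in wild type. NCU05289 was at 27.5, 16 and 13.1 in Δamn-1, against 0.6, 0.6 and 0.436 in wild type. In each of these the strains were far apart. The Δamn-1 values of fkr-4 and NCU05289 stayed below full medium, where they averaged 135 ± 32.5 and 49.6 ± 7.74, while those of NCU09903 overlapped with full medium (22.3 to 31.5). cyt-19 rose to 8.69 ± 2.55 in Δamn-1, against 1.33 ± 0.186 in wild type, and cyt-5 to 8.45 ± 1.37, against 2.17 ± 0.433. Of the glutamine group 52 of 66 rose and 1 fell, while of the glycine group 0 of 43 rose and 2 fell. The 5 that fell were NCU01340 (11.5 ± 2.18 in Δamn-1 and 46.7 ± 13.3 in wild type), NCU06876 (67 ± 2.89 and 245 ± 52.3), NCU04656, cys-16 and NCU00984.

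On amino acids loss of amn-1 touched fewer members. On isoleucine limma called 0 in either direction, where 0.292% of all genes were called higher and 0.292% lower (0.584% in either direction), and 11 had an unadjusted p under 0.05. On proline 12 rose, where 3.14% of all genes did, and 1 fell, where 2.31% did (5.46% in either direction). lacc was at 40.9, 33.3 and 27.8 FPKM in Δamn-1 on proline, against 8.42, 6.27 and 4.83 in wild type (log2 difference 2.23, SE 0.21, adjusted p = 6.8e-13), and NCU07037 at 22.4, 21.2 and 12.2, against 8.68, 8.31 and 4.95. Both also rose in Δnit-2 on proline, in a comparison with the same wild type libraries, lacc to 25.3 ± 7.66 and NCU07037 to 85.6 ± 35.2. Without the Δamn-1 library numbered 3 the count of members that rose was 8.

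The 2 joined entries, NCU07041,NCU07042 and NCU07241,NCU07242, were among the 12. In the deposited values per sample, NCU07242 was at 49.6 ± 2.01 FPKM in Δamn-1 on proline, against 14.1 ± 1.98 in wild type, and NCU07241 at 4.99 ± 0.501, against 4.32 ± 0.495. On arginine NCU07241 was the higher of the pair, at 120.0 ± 5.9, with NCU07242 at 23.1 ± 1.08. The second entry therefore rests mostly on NCU07242 in the first comparison and on NCU07241 on arginine. NCU07042 was at 22.7 ± 1.2 in Δamn-1 on proline, against 9 ± 1.28 in wild type, and NCU07041 at 5.95 ± 1.15, against 2.18 ± 0.171. On arginine NCU07041 was at 153 ± 36.7 and NCU07042 at 21.4 ± 4.23, below its 34.7 ± 3.86 on glycine. On tryptophan 1 member rose in Δamn-1, where 0.199% of all genes did, and 0 fell, where 0.444% did (0.643% in either direction). This was NCU02251, at 1.48, 1.01 and 0.632 FPKM in Δamn-1 and listed at 0 in all 3 wild type libraries (adjusted p = 0.032), and the call was lost without any 1 of the wild type libraries or the Δamn-1 libraries numbered 2 or 3.

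**Figure D5:**
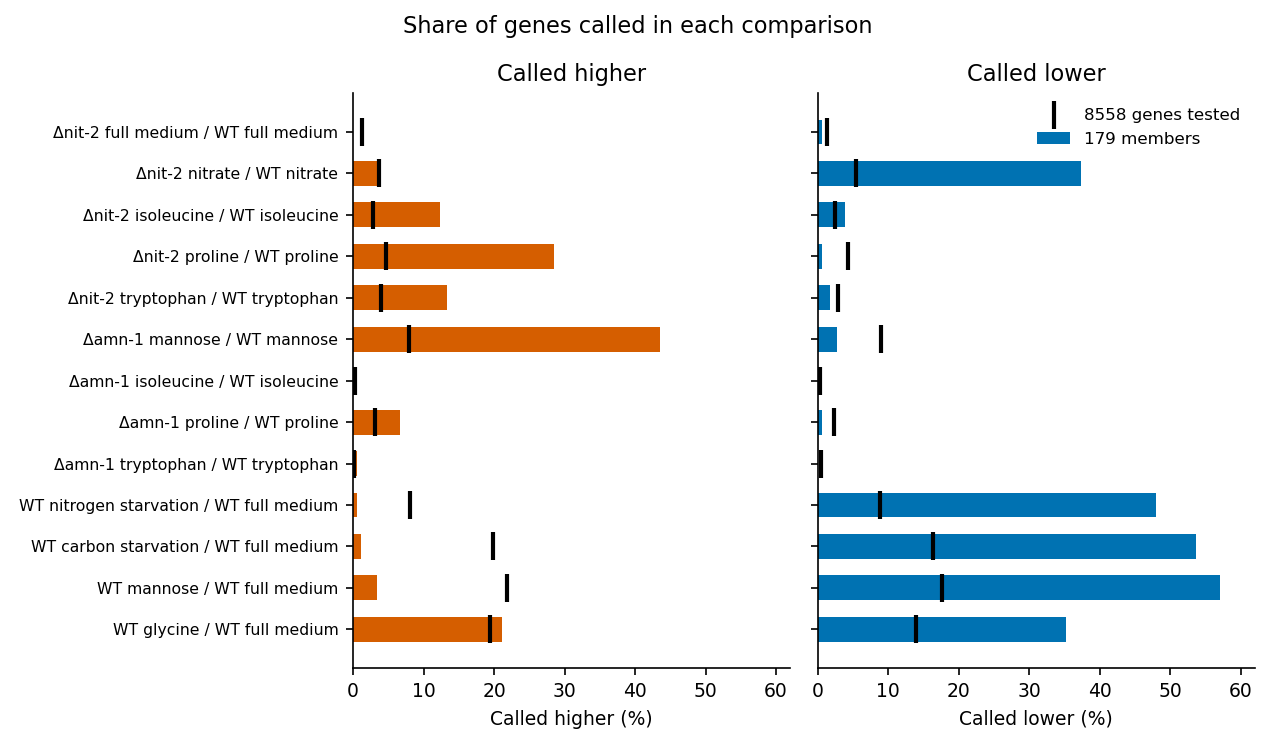
Share of the 179 members called higher (left) and lower (right) in each comparison, the first-named group against the second, with black ticks for the share of all 8558 genes tested. The longest bar of the left panel is the members higher in Δamn-1 than in wild type on mannose (43.6%), and that of the right panel the members lower in mannose than in full medium (57%).

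Other genes of arginine use and of related processes were looked up in 9 lists, of which 54 of 87 symbols had an entry. Arginine against full medium called 17% of all genes higher and 15% lower, 32% in all. Of arginine breakdown genes other than ota, aga-1, arginase, rose, to 521 ± 77.7 FPKM on arginine, against 127 ± 7.5 in full medium. It did not meet the rule for members. Of 11 genes in a list of arginine synthesis, which includes cpc-1, the activator of general amino acid control, 1 rose and 2 fell: arg-4 was at 509 ± 24.5 on arginine and 164 ± 4.09 in full medium, and arg-1, argininosuccinate synthetase, at 184 ± 34.2 and 516 ± 7.24. The other that fell, arg-14, stands in an entry joined with its neighbour. Of 3 amino acid permeases the general permease pmg (810.0 ± 115 on arginine and 216 ± 16.6 in full medium) and the basic amino acid permease pmb (172 ± 6.34 and 85.2 ± 5.49) rose. Neither was highest on arginine: pmg averaged 1257 ± 5.33 on alanine and pmb 237 ± 9.95 on nitrate.

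No gene of the other lists was a member either. Of 7 genes of phosphate uptake and its regulation 4 rose: the permeases pho-4 (110.4 ± 30.8 FPKM on arginine and 5.93 ± 0.922 in full medium) and pho-5 (58.8 ± 15.3 and 2.85 ± 0.596), and the regulators nuc-1 (in a joined entry) and nuc-2. Of these nuc-2 was higher on glycine (87.1 ± 4.22) than on arginine (46.4 ± 4.17). Of 8 osmotic and pH signalling genes 3 rose: the histidine kinase gene os-1 (114 ± 5.94 and 53.9 ± 3.09), rrg-2 and asl-1. Of 5 nitrogen regulators nit-2 (161 ± 14.8 and 44.2 ± 1.92) and its partner nmr (33.9 ± 3.96 and 13.5 ± 1.2) rose. The mean of nmr was higher in mannose, at 41.7 ± 10.8. Of 7 alternative respiration genes 1 rose (aod-2) and 1 fell (nde-3), of 8 cation transport genes 0 rose and 1 fell (nca-1), and of 3 polyamine synthesis genes 0 were called, with the ornithine decarboxylase gene spe-1 at 322 ± 46.8 FPKM on arginine and 255 ± 18.9 in full medium. Over the lists 14 genes that are not members rose and 4 fell.

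The positions of the members are a description, without a test. Of joined entries the gene that met the rule by itself was used. Of 179 member genes 21 (11.7%) had a member as immediate neighbour, against 3.46% of other genes. They formed 9 runs of 2 and 1 run of 3, NCU07614 to NCU07616 (12.4, 260448 to 265918). NCU03649 and rad16 are adjacent (12.5, 1957737 to 1965066), with 82.3 and 71.7 FPKM on arginine against 12.6 and 8.5 on glycine, as are NCU06875 and NCU06876 (12.7, 630013 to 634395), with 654 and 957 FPKM on arginine. Within 100 kb of the outermost gene of a supercontig lay 17 member genes (9.5%), against 3.94% of other genes, among them NCU07152, NCU07149, NCU09903, NCU09914 and NCU08641. The overlap of a member gene with another gene was as frequent as elsewhere (23.5% against 22.8%), and the median locus length was 2277 bases for members and 2127 for other genes.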

How the data were processed

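FPKM per gene and sample, and a joint FPKM table of all 86 samples, were deposited by the authors. The submitters' processing notes list HISAT2 2.1.0 with Cufflinks 2.2.1 and Cuffnorm 2.2.1. Neither the genome build nor the use of strand is stated in those sources, so overlapping genes are uncertain. In 99.9% of genes the loci equalled those of NC12, and the files' own coordinates are printed. Of 9758 identifiers 9757 were found in the reference gene table, which has 1118 symbols. That NCU00445 is amn-1 is background knowledge. Sequences and products were not used here.

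In 51 of 86 columns of the joint table the replicate number was not that of the sample label, so columns stand for their group alone, and a library left out carries its joint-table number. Neighbouring genes are merged in 153 of 9598 entries. Depth was estimated from the deposited confidence bounds. Estimates under 20 fragments were whole numbers, to within 0.05, in 78.3% of cases. A failed status marked 41 of 839188 values. Among 100 replicate pairs 0 were identical (lowest chi-square per degree of freedom 3.48).

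The test was limma 3.58.1 (R 4.3.3) on log2(FPKM + 1), which understates differences of low genes. All 86 samples entered, with 1 mean per group and a trended prior (59 residual and 3.73 prior degrees of freedom), and p-values, two-sided, were adjusted by Benjamini-Hochberg across 8558 genes that reached 1 FPKM in at least 3 samples. All 179 members passed this filter, as their arginine levels made them do, so counts of members stand beside the share of all genes called. The fit was tested on simulated data. It gave 14 comparisons of groups and 1 of a deletion's effect between media. Python 3.11.15 with pandas 2.3.3 and numpy 2.4.6 made the tables, and matplotlib 3.10.9 drew the plots.

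The members, lists and tests were chosen with earlier results of these data known. Genes were named by rule: members with a symbol, the 12 largest excesses, the 5 highest levels, 3 genes on each side of the margin, list genes and up to 4 called members per comparison with the largest differences. Members outside the rule were named after their values were seen. Alternatives were a pseudocount of 0.1, no filter, a filter at 10 FPKM, median-ratio scaling, per-sample values, fits restricted to a comparison's own groups, a block for the replicate number, each library left out in turn, and margins of 1 and 2 log2. Shared replicate numbers did not pair the samples: deviations of same-numbered samples correlated at -0.343 to 0.403.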

Additional observations from a re-analysis of the deposited data

Results flagged for a closer look

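Among 66 checks of a single library against the rest of its group, 6 stood apart, and chance gives about 1 in 20. Without nitrogen NCU02602 was at 187 FPKM in 1 library (324 to 349 in the others), NCU06048 at 489 (322 to 358) and NCU09536 at 47.4 (27 to 32.8). In full medium mus-53 was at 2.23 FPKM in 1 library (2.59 to 2.71 in the others), NCU06875 at 36.6 (24.6 to 27.3) and NCU07152 at 0.0868 (0 in the others).

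The effect of losing nit-2 differed between proline and nitrate in 93 members by the test of the difference itself, 92 of them in the direction of proline. The largest were 4.91 log2 for NCU03092, 3.77 for NCU08518, 3.67 for NCU05650 and 3.64 for NCU02675.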

How the results depend on the processing

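None of the 46 named differences changed sign in the settings run. The balance of calls turned for Δnit-2 on isoleucine: 22 members rose and 38 fell without the Δnit-2 library numbered 1, and 21 rose and 23 fell without the wild type library numbered 1, against 22 and 7. Fitting only the groups compared gave 0 in full medium for Δnit-2 and 0 on tryptophan for Δamn-1. A filter at 10 FPKM also gave 0 for Δamn-1 on tryptophan. A pseudocount of 0.1 gave 25 for Δamn-1 on proline, against 13. It also gave 18 lower for Δnit-2 on isoleucine (against 7), 7 lower on tryptophan (against 3), 11 higher on nitrate (against 7), 8 lower for Δamn-1 on mannose (against 5), and, relative to full medium, 8 higher without carbon (against 2) and 11 higher on mannose (against 6). A margin of 1 log2 gave 404 members and a margin of 2 gave 66.

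With each library left out, called members ranged as follows. For Δnit-2 they were 0 to 1 in full medium, 47 to 85 on nitrate, 23 to 60 on isoleucine, 48 to 64 on proline and 24 to 29 on tryptophan. For Δamn-1 they were 80 to 89 on mannose, 0 to 1 on isoleucine (1 without the Δamn-1 library numbered 2), 8 to 18 on proline and 0 to 1 on tryptophan. Against full medium they were 85 to 88 without nitrogen, 96 to 101 without carbon, 106 to 110 on mannose and 98 to 104 on glycine. The difference of the Δnit-2 effects gave 90 to 95, and list genes on arginine 16 to 19. Choosing members from 2 of the 3 arginine libraries gave 155 to 227, with 227 without library 3, where the members' median level was lowest; of those 227, 112 met the margin in library 3 itself.

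Replicate numbers did not pair the samples. With the replicate number as a block, in per-sample values, the counts for Δnit-2 were 1 in full medium, 72 on nitrate, 29 on isoleucine, 50 on proline and 27 on tryptophan. For Δamn-1 the block gave 85 on mannose, 0 on isoleucine, 12 on proline and 0 on tryptophan. It gave 89 without nitrogen, 103 without carbon, 112 on mannose, 105 on glycine, 19 list genes and 93 for the difference of effects. Of 673 other values of the 46 named results 663 kept their call and 10 lost it. NCU09382 in full medium lost it with the block (-0.65) and with only the groups compared. The joined entry NCU07241,NCU07242 in Δamn-1 on proline lost it in per-sample values (0.17, for NCU07241 alone).

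Limits: 3 libraries per group, a single time, 1 arginine concentration and no deletion strain on arginine.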

Other observations

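Since 5 of the 17 members with a symbol act in DNA repair, all 43 symbols of DNA repair and mutagen sensitivity in the reference table were looked up, a list made after the members' values were seen and given as a description. Of the 42 with a tested entry 5 are members. Of the other 37, 21 were highest on arginine among the 14 wild type media, where 17.2% of the genes tested that are not members were. Highest here means the largest mean, without a margin, so near ties count. The excess of the 21 ran from 0.05 log2 in upr-1 (1.96 FPKM on arginine and 1.88 on isoleucine) to 1.44 in mei-3. The same arginine means chose the members that prompted the list, so the comparison with 17.2% is not an independent test. In these counts mus-52, which is among the 21, and msh4, which is not, stand in entries joined with another gene. Besides the members, mus-51, the Ku70 subunit of end joining, was at 73.3 ± 2.2 FPKM on arginine and 27.7 on glycine, its second highest medium. rad23 was at 239.7 ± 14.4 on arginine and 107 on glycine. Both fell short of the margin of 1.5 log2, mus-51 at 1.37 and rad23 at 1.15. Not all genes of the list shared the pattern: the photolyase gene phr was at 14.8 ± 1.57 on arginine and 59.2 on glycine, and poli at 3.62 ± 0.0186 on arginine and 50.4 without carbon.

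NCU09604 split the 6 libraries without nitrogen, at 10, 7.96, 6.8, 0.884, 0.737 and 0.702 FPKM, a gap that the group's mean of 4.52 does not show. These libraries also differed in depth. By sample label, numbers 1 to 3 held 6960000 to 10020000 estimated fragments and numbers 4 to 6 held 14910000 to 18510000. The part of depth in the gap was not tested.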
